A study of Mus musculus with 2 samples.

Results

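Natural killer (NK) cells of the mouse abdominal aorta were described in a single-cell RNA sequencing study of abdominal aortic aneurysm. A cell was counted as an NK cell when its UMIs of *Ncr1*, *Klrb1c* and *Klre1* summed to at least 2. In addition, it had at most 1 UMI of *Cd3d*, *Cd3e* and *Cd3g* together, no UMI of *Cd79a* or *Cdh5*, at most 1 UMI of the C1q genes and fewer than 10 UMIs of *S100a8* and *S100a9* together. A UMI (unique molecular identifier) tags 1 captured RNA molecule, and PCR copies of it are counted once. Under this rule, 60 of 35848 cells were NK cells, 8 of 11288 in the Control library and 52 of 24560 in the AngII+HS library. These counts of the marker genes chose the cells, so the levels of those genes, and every difference from T cells, are given as a description and not as a test.

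Both groups were male C57BL/6J mice of 5 months. Control mice received normal saline. AngII+HS mice received angiotensin II at 1500 ng/kg/min from an osmotic minipump, and drank water holding 0.9% NaCl and 0.2% KCl, until the aortas were taken on day 28. No transgene or deletion was named for either group. The series design states that 5 mice were pooled for each sample, whereas the extraction protocol names 1 mouse for Control and 2 for AngII+HS, and both statements are given here as they stand. There was 1 library for each group, so there was no spread between mice, no test between the groups and no replicate check of any difference. The 95% intervals below are exact binomial or Poisson intervals, and they cover counting error only.

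NK cells are innate lymphocytes that kill infected or transformed cells without a rearranged antigen receptor. Their activity is set by the balance of activating and inhibitory receptors, many of which bind MHC class I molecules. The killing itself runs through granules holding perforin and granzymes, and NK cells also release chemokines and interferon gamma. They depend on interleukin-15, signalling through *Il2rb*, and on the T-box factors T-bet (*Tbx21*) and *Eomes*. *Ncr1* encodes NKp46, an activating receptor, *Klrb1c* encodes NK1.1, and *Klre1* encodes a lectin-like receptor that acts with other receptors of the family.

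On GRCm39 in the GENCODE annotation, *Ncr1* lies on chromosome 7 at chr7:4340710-4348171 on the plus strand. *Klrb1c* (chr6:128755448-128766178, minus strand) and *Klre1* (chr6:129554868-129562791, plus strand) lie in the NK gene complex of chromosome 6, together with *Klrd1* (chr6:129568677-129575738), *Klrk1* (chr6:129587286-129600827), *Klra4* (chr6:130020690-130044294) and *Klra8* (chr6:130092152-130106938). Among the genes of the killing granule, *Gzma* lies at chr13:113230355-113237524 and *Prf1* at chr10:61133546-61140461.

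The start regions of 4 granule genes, which stood above their T cell level in both libraries, are shown as examples. They are the 150 bases before the RefSeq gene start on GRCm38.p6, written in the direction of the gene, with capitals for the RUNX letters TGTGGT or ACCACA and for the T-box letters GGTGTGA or TCACACC. *Gzma* is on the minus strand at chr13:113100982-113101131, *Prf1* on the plus strand at chr10:61297686-61297835, *Gzmb* on the minus strand at chr14:56262335-56262484, and *Nkg7* on the plus strand at chr7:43436988-43437137.
Gzma: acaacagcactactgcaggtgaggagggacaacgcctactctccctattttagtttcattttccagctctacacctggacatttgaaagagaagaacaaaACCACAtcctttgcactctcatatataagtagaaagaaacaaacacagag
Prf1: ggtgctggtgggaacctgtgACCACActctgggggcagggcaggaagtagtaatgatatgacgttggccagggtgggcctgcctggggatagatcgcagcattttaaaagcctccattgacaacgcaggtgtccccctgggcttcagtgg
Gzmb: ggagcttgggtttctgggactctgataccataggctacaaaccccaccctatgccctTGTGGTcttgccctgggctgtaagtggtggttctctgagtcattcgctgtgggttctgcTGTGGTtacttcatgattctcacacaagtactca
Nkg7: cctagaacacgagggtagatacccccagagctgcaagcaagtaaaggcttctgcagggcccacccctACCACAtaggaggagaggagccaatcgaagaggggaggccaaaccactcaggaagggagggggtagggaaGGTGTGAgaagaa
Searched on both strands over the 250 bases before the start, the RUNX letters were in 6 of the 15 starts that RefSeq listed for the NK genes outside the rule, in none of the 12 starts listed for T cell genes, and in 14% of all 32851 starts. All 4 starts shown hold the RUNX letters, whereas those of *Klra4* and *Klra8*, also above their T cell level in both libraries, had none. The T-box letters were in 1 of the 15 and in 3.33% of all starts. These matches describe the letters in this window and are not binding sites.

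The Control library held 86618995 UMIs in 11448 barcodes, and the AngII+HS library 117146856 UMIs in 24804 barcodes. The kept cells had a median of 7576 UMIs in the Control and 3550 in the AngII+HS library. NK cells were shallower than the median cell of their library, with a median of 4741 UMIs (2521 to 15493) in Control and 2566 UMIs (1127 to 19857) in AngII+HS. The 8 Control NK cells held 54252 UMIs in all and the 52 AngII+HS NK cells 188932, and levels are given as CPM, the UMIs of a gene per 1000000 UMIs of the pooled cells. At these totals, 1 UMI stood for 18.4 CPM in Control and for 5.29 CPM in AngII+HS. The lists of barcode names are of the wrong length for their own matrix, and each has the length of the other group's matrix. They were not used to name cells, each matrix was kept with its recorded sample, and a swap of the matrices would reverse every direction between the groups. In the kept cells other than NK cells, summed smooth muscle markers were at 21765 CPM in Control and 4046 CPM in AngII+HS, macrophage markers at 808 and 5607 CPM, and neutrophil markers at 476 and 4587 CPM. The 2 lists shared 67 barcodes.

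A set of 11 NK cells stood apart by markers of other cell types. They carried at least 1% of their UMIs on such markers, 2 cells in Control and 9 in AngII+HS. In Control, these 2 cells had 1.84% and 3.74% of their UMIs on the markers, and the other 6 had at most 0.239%. In AngII+HS, the 9 cells had between 1.53% and 14.2%, and the other 43 had at most 0.830%. In both Control cells and in 3 AngII+HS cells the leading markers were those of smooth muscle, in 4 those of dendritic cells, in 1 those of erythroid cells and in 1 those of fibroblasts. Of the 11, 6 were among the cells marked as doublets, which held 1 of the remaining 49. More than their share of the UMIs lay in them, 54.6% of those of the Control group and 37.8% in AngII+HS. The share of T cells at or above the same 1% was 15.9% in Control and 27.2% in AngII+HS. Values below are given for all NK cells and, where it matters, for the 49 below 1% (6 and 43 cells, with 24621 and 117531 UMIs), compared with T cells below 1%. This threshold was chosen after the data were seen. The AngII+HS cell nearest to it, at 0.830%, was led by macrophage markers and was the 1 cell below 1% that was marked as a doublet, and values that it moves by over 1.5 times are also given without it, a choice likewise made after the data were seen.

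**Figure D1:**
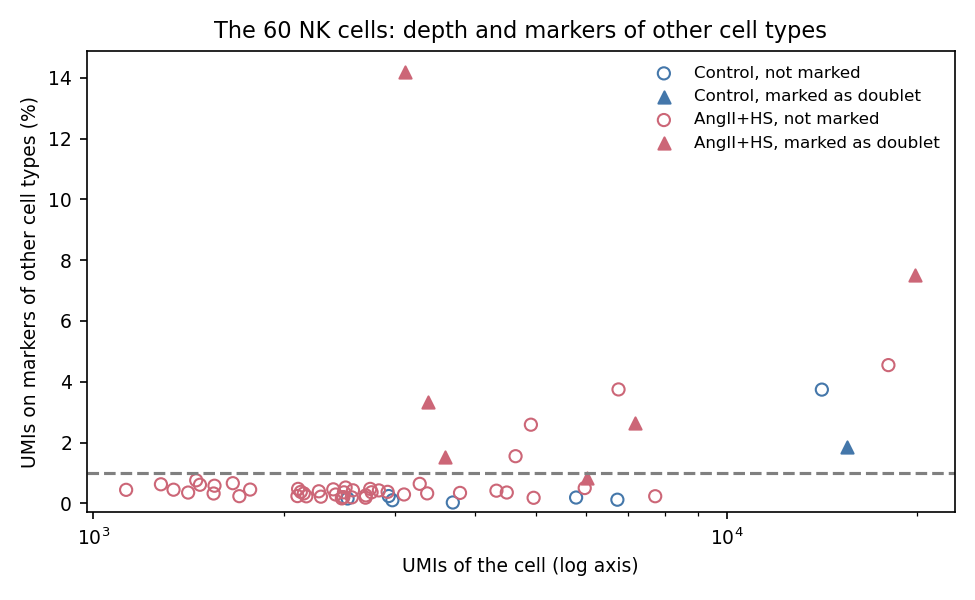
Each point is 1 of the 60 NK cells, with its UMIs on a log axis and the percent of those UMIs on markers of other cell types. The dashed line marks 1%, above which 2 Control and 9 AngII+HS cells lie, and triangles mark cells scored as doublets.

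The rule kept few of the cells that carried a marker gene. A marker sum of at least 2 was found in 16 Control and 83 AngII+HS cells. The *Cd3* limit left 11 and 69 of these, the *Cd79a*, C1q and S100a limits left 11 and 57, and the *Cdh5* limit left 8 and 52. Just outside the threshold, with a sum of 1 and every other condition met, were 43 Control and 109 AngII+HS cells, and just inside it, with a sum of 2, were 2 and 27. The sum was at least 4 in 4 of the 8 Control cells and in 9 of the 52 AngII+HS cells. *Klre1* was the most widely detected marker, with a UMI in 7 and 45 cells, against 6 and 23 for *Klrb1c* and 3 and 18 for *Ncr1*. At least 2 of the 3 genes were detected in 6 of 8 cells in Control and in 30 of 52 in AngII+HS.

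NK cells made up 0.0709% of the kept Control cells (95% interval 0.0306% to 0.140%) and 0.212% of the kept AngII+HS cells (0.158% to 0.278%). The share was 2.99-fold higher in the AngII+HS library, with an interval for the ratio of 1.41 to 7.28. T cells, counted as cells with at least 2 UMIs of *Cd3d*, *Cd3e* and *Cd3g*, numbered 107 (0.948%) and 1043 (4.25%). Against T cells, the order was the other way, with 7.48 NK cells per 100 T cells in Control and 4.99 in AngII+HS, and a log2 ratio of -0.58 whose interval of -1.67 to 0.70 holds 0. A UMI minimum is easier to reach in a deeper cell, and the Control cells were the deeper ones. With every cell thinned to 1000 UMIs before the rule was applied, 3 of 10560 cells passed in Control and 24 of 22721 in AngII+HS (0.0284% and 0.106%, log2 ratio 1.89, 0.18 to 4.27). A sum of at least 3 left 6 and 25 cells with a log2 ratio of 0.94, and the 49 cells below 1% gave 1.72. No interval was calculated for these 2 ratios, and each rests on 6 Control cells. Without any *Cd3* or T cell receptor UMI, 1 Control cell and 21 AngII+HS cells were left. That Control cell was led by smooth muscle markers and had no UMI of the NK genes outside the rule that are used below. In these shares a larger number of NK cells and a smaller number of other cells cannot be told apart.

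**Figure D2:**
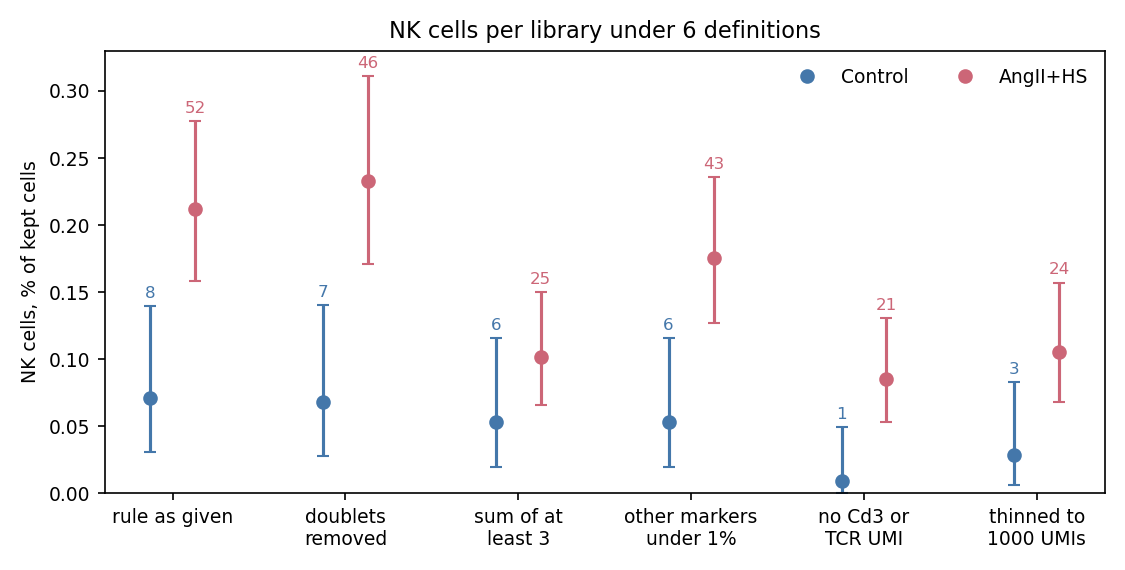
NK cells as a percent of the kept cells in the Control and AngII+HS libraries under 6 definitions, with exact 95% binomial intervals and the number of cells above each. The AngII+HS share was the higher one in all 6, from 0.0855% against 0.00886% without any *Cd3* or T cell receptor UMI to 0.233% against 0.0682% with doublets removed. The 1 Control cell without any *Cd3* or T cell receptor UMI was led by smooth muscle markers.

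The label was checked against 16 NK genes that the rule did not use. At least 3 of them were detected in 7 of 8 Control and in 43 of 52 AngII+HS NK cells, and all but 1 Control cell had at least 1. Their summed level was 4129 CPM in Control and 5192 CPM in AngII+HS NK cells, against 1086 and 1073 CPM in T cells and 48.4 and 30.1 CPM in B cells (cells with at least 2 UMIs of *Cd79a*). In the 49 cells below 1%, it was 7839 and 7692 CPM, against 1477 and 1576 CPM in T cells. The cell without any of the 16 was 1 of the 2 Control cells led by smooth muscle markers, and it had 154 UMIs of *Acta2* and 2 of *Klre1*. Of the 43 AngII+HS cells below 1%, 5 had fewer than 3 of the genes. The label thus held for most of the members and not for all of them.

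In the AngII+HS library, 13 of the 14 measured NK genes outside the rule were at least 2-fold higher in NK than in T cells, with a median log2 ratio of 2.52. Over all 11532 genes with at least 20 UMIs there, 10.2% were at least 2-fold higher in NK cells, 15.4% were at least 2-fold lower, and the median was 0.04. In both libraries at once, 7 of 10 measured NK genes were at least 2-fold higher, where 2.34% of 5939 genes were at least 2-fold higher and 2.9% at least 2-fold lower. In Control, *Eomes* (36.9 CPM in NK and 38.8 CPM in T cells) and *Txk* (203 and 231 CPM) were not higher in NK cells. Below 1%, the count was again 13 of 14 with a median of 2.63, where 11.8% of 9219 genes were at least 2-fold higher and 15.9% at least 2-fold lower. The exception was *Nkg7*, a granule protein that cytotoxic T cells also use, with 318 CPM in NK and 179 CPM in T cells of the AngII+HS library. The contrast with T cells was set by the rule, so nothing is read from these counts against the background.

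Of the 10 genes named for the highest ratio over T cells, 6 were receptors of the chromosome 6 complex, *Klre1* of the rule among them. The others were *Irf8*, *Car2*, *Kit* and ENSMUSG00000121360, a feature without a symbol in the files, which lies at chr6:130262936-130285421 on the minus strand, on the same stretch of chromosome 6 as *Klra7* (chr6:130195566-130210370, minus strand). *Klra8*, which encodes Ly49H, an activating receptor known for its recognition of a cytomegalovirus protein, was at 92.2 CPM in Control and 296 CPM in AngII+HS NK cells. In T cells it was at 0 and at 0.440 CPM, which made the NK level at least 23.0-fold higher in Control, counted against a floor of 3 UMIs over all T cells. *Klra4*, encoding the activating receptor Ly49D, was at 350 and 270 CPM in NK cells and at 0 and 1.32 CPM in T cells. Of its 19 UMIs in Control NK cells, 15 came from 1 cell. *Klrb1b*, an inhibitory receptor of the NKR-P1 family, was at 166 and 281 CPM against 0 and 7.25 CPM. *Klri2* was at 18.4 and 175 CPM against 1.34 and 6.81 CPM, and the Control value is 1 UMI. *Klra7*, encoding the inhibitory receptor Ly49G, was at 18.4 and 201 CPM against 16.0 and 11 CPM. The Control value is again 1 UMI, and its log2 ratio to T cells of 0.20 has an interval of -5.22 to 2.96, against 4.19 (3.55 to 4.83) in AngII+HS. *Klra* genes are near-identical copies of each other, and reads may have been divided between them.

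Of the 24 measured receptor genes, some of which are also among the NK genes above, 18 were at least 2-fold higher in NK than in T cells of the AngII+HS library and 2 at least 2-fold lower, beside 10.2% and 15.4% of all genes (13 and 2 of 20 below 1%, beside 11.8% and 15.9%). *Klrd1*, which encodes CD94, the partner of the NKG2 chains, was at 203 and 302 CPM in NK cells against 50.8 and 56.3 CPM in T cells. *Klrk1*, which encodes the activating receptor NKG2D, was at 166 and 333 CPM against 46.8 and 78.0 CPM. At 1000 UMIs per cell in the AngII+HS library, *Klrd1* was detected in 23.1% of NK cells, 6.31% of T cells and 0.326% of B cells, and *Klrk1* in 23.1%, 7.48% and 0 of 919. The lower pair was *Pdcd1*, encoding the checkpoint receptor PD-1, and *Cd96*, with 2 UMIs each in the 43 AngII+HS cells below 1%, against 137 and 45.5 CPM in T cells below 1%.

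The genes of the killing granule were uneven between single cells. *Gzma* was at 922 CPM in Control (50 UMIs) and 1223 CPM in AngII+HS (231 UMIs), against 119 and 102 CPM in T cells and no UMI in B cells of either library. In the 6 Control cells below 1%, the *Gzma* counts were 12, 1, 0, 0, 29 and 3 UMIs. In the 43 AngII+HS cells below 1%, they ran from 0 to 66 with a median of 0, and 21 cells had a UMI. At 1000 UMIs per cell, *Gzma* was detected in 38.5% of the AngII+HS NK cells (25.3% to 53.0%), in 4.27% of T cells and in 0 of 919 B cells. Without thinning, the shares were 44.2%, 7.29% and 0 of 924, at median depths of 2566, 2940 and 2800 UMIs. *Prf1*, encoding perforin, was at 147 and 127 CPM against 16.0 and 10.8 CPM in T cells. *Gzmb* was at 240 and 286 CPM against 72.2 and 55.0 CPM.

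Of the 14 measured genes of granules and death ligands, 6 were at least 2-fold higher in NK than in T cells of the AngII+HS library and 1, *Gzmk*, was at least 2-fold lower, with 1 UMI in NK cells, beside 10.2% and 15.4% of all genes. *Serpinb9*, an inhibitor that protects cytotoxic cells from their own granzyme B, was at 498 and 588 CPM in NK cells against 62.8 and 159 CPM in T cells. *Serpinb6b* of the same inhibitor family was at 276 and 556 CPM against 78.8 and 105 CPM. *Srgn*, which encodes the granule proteoglycan serglycin, was at 535 and 900 CPM in NK cells and at 603 and 1323 CPM in T cells. *Fasl*, the Fas ligand, had a log2 ratio of 0.65 in the AngII+HS library, and its interval of -0.18 to 1.38 holds 0.

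**Figure D3:**
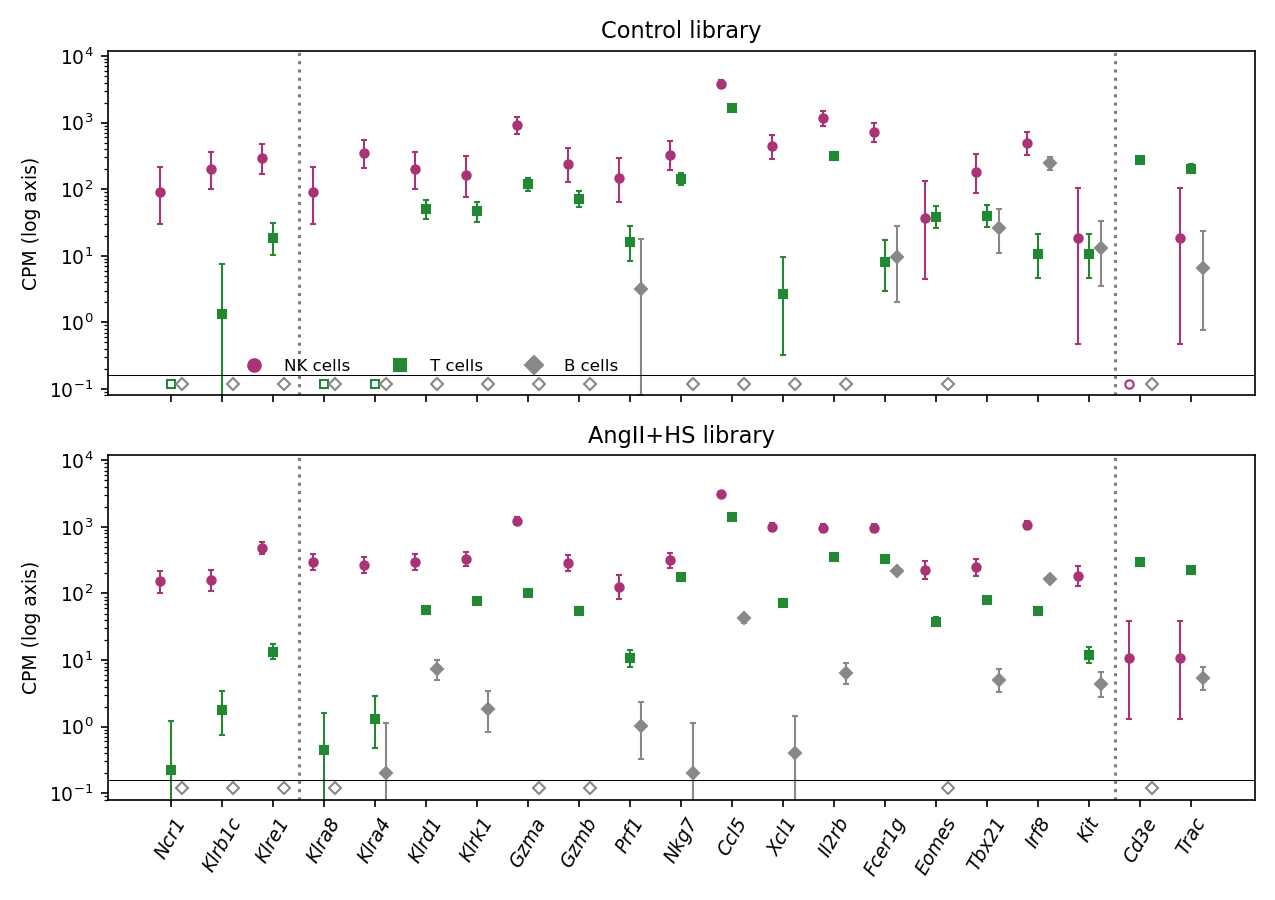
Levels of 21 genes in NK, T and B cells of each library as CPM on a log axis, with exact 95% Poisson intervals, over all members. Open symbols under the line mark 0 UMIs, the genes left of the first dotted line were used by the rule to choose NK cells, and those right of the last one are T cell genes. *Ncr1*, *Klra8* and *Klra4* had at most 1.32 CPM in T cells of either library.

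Of the 14 measured adaptors and kinases of receptor signalling, 5 were at least 2-fold higher in NK than in T cells of the AngII+HS library and 3 at least 2-fold lower, the second count being near the 15.4% of all genes and the first above the 10.2%. *Fcer1g*, an adaptor of NKp46, was at 719 and 969 CPM in NK cells against 8.02 and 327 CPM in T cells. *Tyrobp*, which encodes DAP12, the adaptor of Ly49H and Ly49D, was at 313 and 677 CPM against 4.01 and 255 CPM. The AngII+HS T cell values of both genes were lower below 1%, at 140 and 110 CPM, and the NK values were 1149 and 817 CPM. *Cd247*, encoding CD3 zeta, was at 55.3 and 132 CPM in NK cells against 381 and 289 CPM in T cells, and *Lat* at 0 and 31.8 CPM against 116 and 122 CPM.

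Of 11 measured cytokines and chemokines, 3 were at least 2-fold higher in NK than in T cells of the AngII+HS library and 3 at least 2-fold lower (5 and 2 of 10 below 1%), beside 10.2% and 15.4% of all genes (11.8% and 15.9% below 1%). *Ccl5*, which draws T cells and macrophages, was at 3816 CPM in Control and 3133 CPM in AngII+HS. It was 1 of the 10 named genes of the highest level in AngII+HS NK cells, beside *Malat1* (19414 CPM), *Tmsb4x* (13545 CPM), *Tpt1*, *Fth1*, *Actb*, *Eef1a1* and *H2-K1*, and *Col3a1* and *Spp1*, which came mostly from 1 cell. T cells had 1665 and 1411 CPM, and B cells 0 and 42.2 CPM. It was detected in 7 of 8 Control and in 47 of 52 AngII+HS NK cells. The 6 Control cells below 1% had 27, 27, 29, 19, 27 and 62 UMIs, and the 43 AngII+HS cells had 0 to 46 with a median of 9. *Xcl1*, a chemokine for cross-presenting dendritic cells, was at 442 and 1000 CPM against 2.67 and 72.1 CPM in T cells. It was also uneven, with 0 to 42 UMIs in the 43 AngII+HS cells and a UMI in 27 of them.

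*Ccl4* was at 1124 and 1000 CPM in NK cells, and at 56.1 and 776 CPM in T cells, so that the log2 ratio was 4.32 in Control and 0.37 in AngII+HS (0.15 to 0.58). Below 1%, the second ratio was 1.48. *Ifng*, interferon gamma, was at 73.7 and 122 CPM in NK cells. The 4 Control UMIs came from 1 cell. In the AngII+HS library, T cells had 124 CPM and the log2 ratio of -0.03 had an interval of -0.70 to 0.57. *Ltb*, lymphotoxin beta, was lower in NK cells, with 0 and 5 UMIs in all and 102 and 200 CPM in T cells.

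Of 14 measured cytokine receptors, 4 were at least 2-fold higher in NK than in T cells of the AngII+HS library and 2 at least 2-fold lower, beside 10.2% and 15.4% of all genes, so that the count of lower ones was near that of all genes. *Il2rb*, the shared chain for interleukin-2 and interleukin-15, was at 1161 and 969 CPM in NK cells against 317 and 350 CPM in T cells. It was detected in 7 of 8 and in 42 of 52 NK cells. At 1000 UMIs per cell, the share was 61.5% in AngII+HS NK cells, 32.8% in T cells and 0.544% in B cells. *Il12rb2*, a chain of the interleukin-12 receptor, was at 332 and 392 CPM against 60.1 and 142 CPM, and *Il18rap*, a chain of the interleukin-18 receptor, at 313 and 191 CPM against 49.4 and 69.5 CPM. *Il7r*, the interleukin-7 receptor of T cells and other lymphoid cells, was lower in NK cells, at 55.3 and 95.3 CPM against 291 and 288 CPM, and was found in 3 of the 49 cells below 1%.

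Of 16 measured transcription factors, 4 were at least 2-fold higher in NK than in T cells of the AngII+HS library and 5 at least 2-fold lower (5 and 3 below 1%). Of all genes, 10.2% were higher and 15.4% lower (11.8% and 15.9% below 1%), and the 3 lower ones below 1% are near that share. *Irf8*, an interferon regulatory factor also used by B and myeloid cells, was at 498 and 1080 CPM in NK cells against 10.7 and 54.7 CPM in T cells. *Tbx21* was at 184 and 249 CPM against 40.1 and 79.1 CPM. *Eomes* was at 36.9 and 228 CPM against 38.8 and 37.6 CPM, and the Control value is 2 UMIs. At least 1 of the T-box pair was detected in 5 of 6 cells below 1% in Control and in 32 of 43 in AngII+HS, and both in 1 and 12. *Runx3*, which acts in cytotoxic lymphocytes, was at 350 and 476 CPM against 275 and 200 CPM. *Tox*, *Tcf7* and *Zbtb16*, which act in T cell and innate lymphoid development, were lower in NK than in T cells in both libraries. *Car2*, encoding carbonic anhydrase 2, was outside these lists and stood at 36.9 and 206 CPM in NK cells against 8.02 and 4.40 CPM in T cells. ENSMUSG00000121360, the feature of chromosome 6 without a symbol, was at 516 and 281 CPM against 17.4 and 7.91 CPM.

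T cell genes were lower in NK cells, although the rule looked at 3 of them alone. Of 18 other T cell genes, 14 were at least 2-fold lower in NK cells of the AngII+HS library and none at least 2-fold higher, with a median log2 ratio of -2.49 (15 of 18 and -2.76 below 1%). Of all genes, 15.4% were lower and 10.2% higher, and 15.9% and 11.8% below 1%. *Trac*, the constant region of the T cell receptor alpha chain, had 1 UMI in Control and 2 in AngII+HS NK cells, against 204 and 225 CPM in T cells. *Themis*, *Cd8b1*, *Cd40lg* and *Scart1* had together 1 UMI in the 60 cells. *Trbc1*, a constant region of the beta chain, was different, with 8 and 35 UMIs and a log2 ratio to T cells of 0.11 in the AngII+HS library (-0.42 to 0.60). A UMI of *Trbc1* or *Trbc2* was found in all 6 Control and in 27 of the 43 AngII+HS cells below 1%. The 10 genes named for the lowest ratio were these 4, *Cd3g* of the rule, *Sfrp2*, *Tshz2*, *Fam169b*, *Il23r* and *Il1r1*, each with at most 2 UMIs in the NK cells of a library. *Sfrp2*, a secreted Wnt modulator of fibroblasts, was at 475 CPM in all AngII+HS cells other than NK cells, and its log2 ratio of -4.90 was -0.83 below 1%. For *Tshz2*, the same values were -5.26 and -2.99.

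The lists also held genes of the other innate lymphoid cells. Of genes of group 3 cells, *Il23r*, *Il22*, *Il17a*, *Ccr6* and *Il1r1* had no UMI in the 52 AngII+HS NK cells, where T cells held 93.4 CPM of *Il23r* and 32.3 CPM of *Il17a*. In Control, *Il1r1* had 2 UMIs, both in a cell above 1%, and the other 4 genes had none. Of 10 genes of group 1 cells, which share *Ncr1* and *Klrb1c* with NK cells, 6 were at least 2-fold lower in NK than in T cells of the AngII+HS library and none at least 2-fold higher, beside 15.4% and 10.2% of all genes. The leading ones were *Rora*, a nuclear receptor, and *Ikzf2*. *Rora* was at 479 CPM in Control, with 1 of its 26 UMIs in the cells below 1%, and at 302 CPM in AngII+HS, with a UMI in 20 of 52 cells and 349 CPM in the 43 cells, against 571 and 791 CPM in T cells. *Ikzf2* had no UMI in Control NK cells and was at 312 CPM in AngII+HS (451 CPM in the 43 cells), against 170 and 470 CPM in T cells. *Cxcr6*, a homing receptor, and *Itga1*, an integrin of tissue-resident cells, were each detected in 3 of the 43 AngII+HS cells below 1%. Of 6 genes of group 2 cells, *Il1rl1*, *Il13*, *Il5* and *Il17rb* had no UMI in the 60 cells. *Gata3*, which T cells also use, had 4 and 7 UMIs, and *Areg*, encoding amphiregulin, had 0 and 15 UMIs, none of them in the cells below 1%. *Cd69*, a mark of activation and residency, had 0 and 6 UMIs in all NK cells, against 139 and 161 CPM in T cells. *Itgam*, an integrin that mature NK cells carry, was at 162 CPM in the 43 cells and at 98.6 CPM without the cell nearest to 1%, which held 8 of the 19 UMIs, against 33.6 CPM in T cells below 1%.

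**Figure D4:**
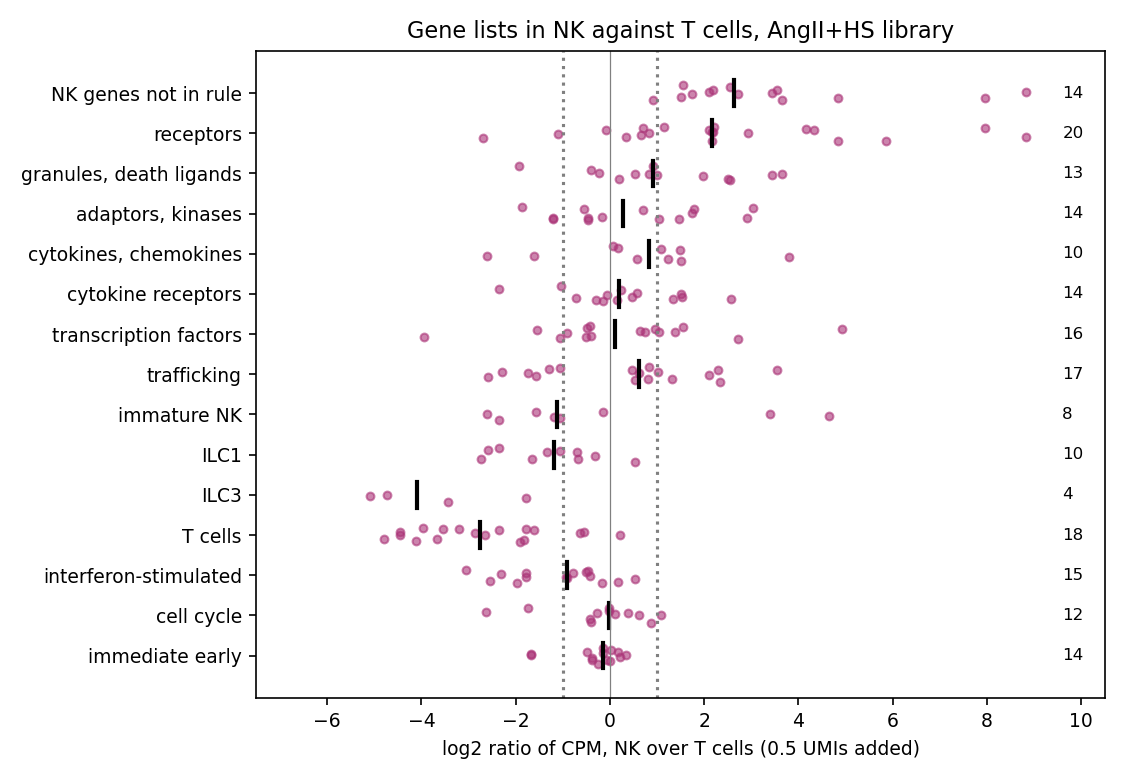
Log2 ratio of CPM in NK over T cells of the AngII+HS library, 1 point per gene with at least 20 UMIs over both cell types, for the NK and T cells below 1%, with 0.5 UMIs added. Black bars are medians, dotted lines mark 2-fold, and the number of genes stands at the right. NK genes outside the rule had a median of 2.63 and T cell genes one of -2.76.

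The AngII+HS NK cells also differed among themselves in *Kit*, the stem cell factor receptor, which lies at chr5:75735576-75817404 and which immature NK cells carry. It had 35 UMIs in the AngII+HS NK cells (185 CPM) and 1 in the Control NK cells (18.4 CPM), against 11.9 and 10.7 CPM in T cells. A UMI was found in 11 of the 43 AngII+HS cells below 1%, with up to 9 UMIs in 1 cell, and in 0 of the 6 in Control, for which the interval reaches 45.9% of cells with a UMI. *Kit* also marks mast cells, and the 4 mast cell and basophil genes *Cpa3*, *Mcpt4*, *Mcpt8* and *Ms4a2* had no UMI in any of the 60 cells.

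*Kit* and *Gzma* were seldom detected in the same cell. Among the 43 cells, 10 had *Kit* without *Gzma*, 20 had *Gzma* without *Kit*, 1 had both and 12 had neither. The division by these 2 genes was chosen after their values were seen, and it is a description of single cells of 1 pool with no test. The cells with *Kit* were somewhat deeper, with a median of 2737 UMIs and 35346 UMIs in 11 cells, against 2476 and 51096 in the 20 with *Gzma* and 2351 and 31089 in the 12 others. Counts of cells with a UMI are not corrected for this. *Prf1* had no UMI in the cells with *Kit* (upper bound of the interval 104 CPM), 431 CPM in the cells with *Gzma* and 32.2 CPM in the rest. *Gzmb* was present on the *Kit* side, at 424 CPM from 15 UMIs in 3 cells, 13 of them in 1 cell, against 685 CPM with *Gzma* and 129 CPM in the rest. *Ccl5* was at 2575, 6517 and 3152 CPM in the same order. *Irf8* was at 1415, 1859 and 418 CPM, and *Klra8* at 283, 783 and 193 CPM.

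Of 8 genes listed for immature NK cells, *Kit* and *Cd7* were at least 2-fold higher in NK than in T cells of the AngII+HS library and 5 at least 2-fold lower, beside 10.2% and 15.4% of all genes. *Cd7*, *Il7r* and *Emb* of this list did not share 1 order over the 3 sets of cells. *Cd7*, a surface protein of lymphoid cells, was at 141 CPM in the cells with *Kit*, 117 CPM in those with *Gzma* and 418 CPM in the rest. The last value came from 13 UMIs in 4 cells, 9 of them in 1 cell. *Il7r* was at 28.3, 39.1 and 193 CPM in the same order, the last from 6 UMIs in 1 cell. *Emb*, encoding the adhesion protein embigin, was at 1584, 744 and 1190 CPM. *Ikzf2*, encoding the factor Helios, was at 877, 196 and 386 CPM and was detected in 7 of 11, 2 of 20 and 4 of 12 cells. *Xcl1* was at 1754, 626 and 2734 CPM, and 42 of the 85 UMIs behind the last value came from 1 cell. Only with that cell counted was the last value above the first. *Il2rb* differed less, at 1726, 1448 and 1254 CPM, and so did *Fcer1g*, at 1443, 1116 and 868 CPM. The group with neither gene held all 4 cells with *Tmem176b* and 2 of the 3 with *Cxcr6*.

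**Figure D5:**
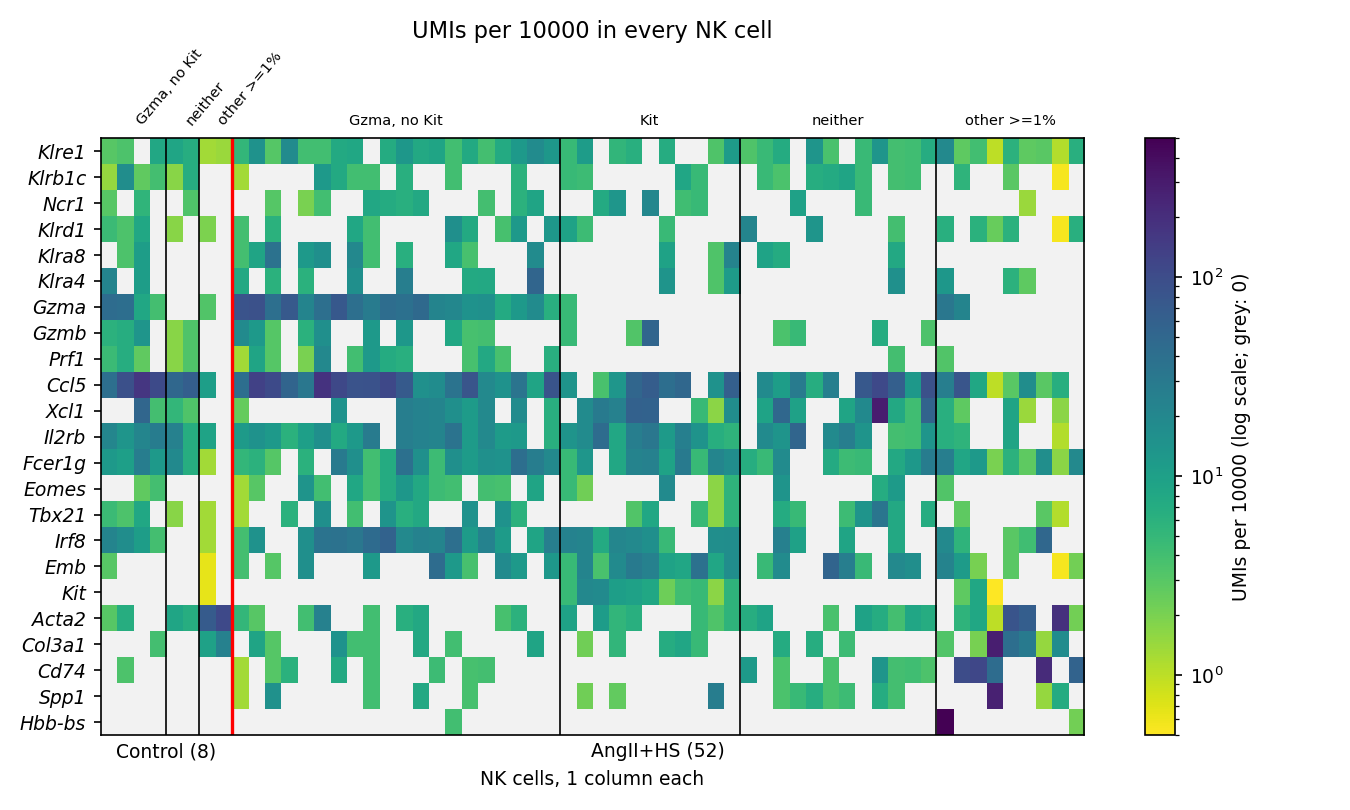
UMIs of 23 genes (rows), scaled to the depth of the cell, in each of the 60 NK cells (columns), on a log colour scale with grey for 0. The red line divides Control from AngII+HS, and within a library the cells are ordered as those with *Gzma* and no *Kit*, with *Kit*, with neither, and at or above 1% of UMIs on markers of other cell types. *Gzma* and *Kit* meet in 1 of the 43 AngII+HS cells below 1%.

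Between the groups, 2633 genes had at least 20 UMIs over all NK cells. Of these, 430 (16.3%) were at least 2-fold higher and 284 (10.8%) at least 2-fold lower in AngII+HS than in Control, and the median log2 ratio was 0.10. The 8 genes with the highest ratios were *Spp1*, *H2-Eb1*, *H2-Ab1*, *Cd74*, *Hmox1*, *Basp1*, *Igkc* and *Cxcl2*. Their log2 ratios ran from 5.13 to 8.37 in NK cells, and from 4.12 to 7.54 in T cells of the same libraries. With a marker sum of at least 3, the NK ratios ran from 1.49 for *Hmox1* to 4.34 for *H2-Eb1*. *Spp1*, encoding osteopontin, had 0 UMIs in Control and 575 in AngII+HS (3043 CPM), and 527 of these came from 1 cell. The antigen presentation genes *H2-Eb1*, *H2-Ab1* and *Cd74* had 254, 207 and 371 UMIs in AngII+HS, of which 7, 13 and 22 were in the 43 cells below 1%. These 4 genes thus lay mostly in the cells that stood apart, as did *Basp1*, with 25 of 82 UMIs outside them. *Hmox1*, encoding the heme-degrading enzyme heme oxygenase, had 111 UMIs, 104 of them in the 43 cells. The cell nearest to 1% held 72 of these, and without it the level in those cells was 287 CPM in place of 885 CPM. *Igkc*, an immunoglobulin light chain, was spread over 37 cells with at most 7 UMIs in any, and 55 of its 74 UMIs were in the 43 cells. *Cxcl2*, a neutrophil chemokine, was spread over 39 cells, with 168 of its 183 UMIs in the 43 cells. The same cell held 115 of these, and without it the level was 475 CPM in place of 1429 CPM. *Igkc* stood at 94100 CPM in B cells and was detected in 65.9% of T cells of the same library. In B and T cells of the AngII+HS library, *Cxcl2* was detected in 71.9% and 71.4% of cells, beside 75.0% of NK cells. *Hmox1* was detected in 27.2% and 31.7% of them, beside 25% of NK cells.

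The 8 genes with the lowest ratios were *Ctnna3*, *Rgs5*, *Cpe*, *Lmcd1*, *Atf3*, *Sgcd*, *Ogn* and *Adamts1*. With a marker sum of at least 3, which left 6 and 25 cells, all 8 turned to higher in AngII+HS, with log2 ratios from 0.84 to 3.90. Both Control cells led by smooth muscle markers had a sum of 2 and were left out by this setting. The 3 such AngII+HS cells had a sum of 3 and stayed in. *Rgs5*, a gene of pericytes and smooth muscle, had 207 UMIs in Control, all but 1 of them in the 2 cells led by smooth muscle markers. Below 1%, the 8 genes had at most 2 UMIs each in Control. Summed smooth muscle markers (5 of 5 detected) were at 13069 CPM in Control and 5473 CPM in AngII+HS over all NK cells, with *Acta2* leading at 5014 and 2514 CPM, and at 772 and 808 CPM below 1%. Summed fibroblast markers (6 of 6 detected), led by *Col3a1*, were at 2046 and 8633 CPM over all cells and at 244 and 800 CPM below 1%. Macrophage markers were at 0 and 492 CPM, and at 0 and 638 CPM below 1% (368 CPM without the cell nearest to 1%), with all 9 genes at 0 in Control. The part of these markers in the other differences between the groups was not tested.

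In the cells below 1%, the sums of the NK genes outside the rule and of the granule genes did not differ between the groups beyond counting error. There, the 16 NK genes outside the rule summed to 7839 CPM in Control and 7692 CPM in AngII+HS, a log2 ratio of -0.03 with an interval of -0.25 to 0.20. Of 13 measured ones, 4 were at least 2-fold higher and 1 at least 2-fold lower in AngII+HS, beside 12.7% and 9.43% of all 1548 genes. Over all NK cells, the sum had a log2 ratio of 0.33 (0.12 to 0.55). *Gzma* was at 1828 and 1812 CPM below 1% (log2 ratio -0.01, -0.48 to 0.49), and *Klre1*, used by the rule, at 487 and 587 CPM. Granule genes and death ligands summed to 6499 and 6143 CPM below 1% (log2 ratio -0.08, -0.33 to 0.18), with none of 9 past 2-fold either way. Over all NK cells they summed to 3392 and 4451 CPM, a log2 ratio of 0.39 whose interval of 0.16 to 0.63 lies above 0. None of 10 was past 2-fold there, beside 16.3% of all 2633 genes higher and 10.8% lower. With a marker sum of at least 3, the median log2 ratio of the NK genes was -0.40 in place of 0.40, and that of the granule genes -0.61 in place of 0.22. That setting kept the same 6 Control cells as the limit of 1%. The 8 genes listed for immature NK cells did differ in sum below 1%, at 244 CPM in Control, from 6 UMIs, and 1838 CPM in AngII+HS. Their log2 ratio was 2.91 (1.77 to 4.38). *Emb* alone held 131 of the 216 AngII+HS UMIs. Of the 8 genes, 3 had enough UMIs to be compared, and 2 were at least 2-fold higher, beside 12.7% of all genes. The 10 genes listed for mature NK cells had a log2 ratio of 0.06 (-0.48 to 0.63) below 1%. The 10 listed for group 1 innate lymphoid cells had one of 0.98 (0.18 to 1.89) there and of 0.04 (-0.41 to 0.52) over all NK cells.

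Some genes of the lists differed by more than counting error, each against 6 Control cells. *Ccl5* was at 7758 CPM in Control and 4441 CPM in AngII+HS below 1%, a log2 ratio of -0.80 (-1.05 to -0.56). *Ccl4* had a log2 ratio of -0.74 (-1.17 to -0.30), but its counts were uneven between cells. The 6 Control cells had 1, 6, 28, 10, 2 and 14 UMIs, and 1 AngII+HS cell held 42 of the 174 there. *Id2*, a factor needed by innate lymphoid cells, was at 1543 and 681 CPM (-1.18, -1.76 to -0.58), and *Smad3*, a mediator of TGF-beta signals, at 894 and 357 CPM (-1.32, -2.10 to -0.51). In the other direction, *Emb* was at 81.2 and 1115 CPM (3.78, 1.90 to 6.84), with a UMI in 1 of 6 and 28 of 43 cells. In T cells below 1% it was at 1175 and 1240 CPM. *Eomes* was at 81.2 and 357 CPM (2.14, 0.19 to 5.23). These genes were picked from the lists after their intervals were seen, and with 1 pool per group the differences between mice and between groups cannot be told apart.

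Immediate early genes depended on which cells were counted. Over all NK cells, 9 of 14 were at least 2-fold lower in AngII+HS, beside 10.8% of all genes, with a median log2 ratio of -1.76, and their sum was 23778 CPM in Control and 8442 CPM in AngII+HS. With a marker sum of at least 3, which left out both Control cells led by smooth muscle markers, the direction turned and the median was 0.57. Below 1%, 2 of 11 (18.2%) were at least 2-fold lower and 1 (9.09%) at least 2-fold higher, beside 9.43% and 12.7% of all genes. The median was -0.15 and the sums were 5930 and 6160 CPM. The T cell sums below 1% were 5743 and 6371 CPM. Interferon-stimulated genes summed to 387 CPM in Control and 1022 CPM in AngII+HS over all NK cells (log2 ratio 1.40, 0.75 to 2.12), and of 4 measured ones 2 were at least 2-fold higher and 1 at least 2-fold lower, beside 16.3% and 10.8% of all genes. They summed to 487 and 553 CPM below 1% (log2 ratio 0.18, -0.72 to 1.21), at too few UMIs for any of the 16 genes to be compared. A UMI of the cell cycle genes *Mki67* or *Top2a* was found in 1 of 6 cells below 1% in Control (0.421% to 64.1%) and in 2 of 43 in AngII+HS, at a depth where a missing UMI does not show that a cell was not cycling.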

How the data were processed

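Single-cell 3′ libraries (10x Genomics) of the abdominal aorta were analysed, 1 for Control and 1 for AngII+HS. The authors deposited raw UMI counts per gene and barcode. The file headers name Cell Ranger 8.0.1 and the submitters' processing notes mm10, whereas the study's methods name another Cell Ranger version and GRCm39. Whether intronic reads were counted is not given in the sources used here.

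A barcode was kept as a cell when it had 500 or more UMIs and 200 or more genes, and fewer than 20% of its UMIs were mitochondrial. Doublets were marked with Scrublet (scanpy 1.11.5) at an expected 0.8% per 1000 cells and removed only as an alternative. UMIs were summed over the cells of a type and library, and genes with at least 20 UMIs over the 2 sums compared were called at 2-fold, with 0.5 UMIs added to each. Intervals (95%) were exact binomial or Poisson. A fold against 0 UMIs used a floor of 3 UMIs over the group. For shares of cells with a UMI, each cell was thinned to 1000 UMIs. The calculation of ratios and their intervals was tested on simulated Poisson sums, which held no differences between single cells. It ran in pandas 2.3.3, scipy 1.17.1 and numpy 2.4.6 under Python 3.11.15. With 1 library per group, no test was made and no p-value is given.

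Named genes were the 10 highest and 10 lowest NK over T ratios (at least 50 UMIs, a UMI in 10% of cells of either type, the same direction in both libraries), the 8 highest and 8 lowest AngII+HS over Control ratios (at least 40 UMIs, a UMI in 20% of members of either library), the 10 of the highest CPM in AngII+HS, and genes of the lists. Mitochondrial and ribosomal protein genes, and genes with a provisional name (Gm or Rik), were left out of the first 3 choices, whereas features listed by an Ensembl ID were not. The members and lists were chosen with earlier results of these data known. The 1% limit on markers of other cell types, the division by *Kit* and *Gzma*, and *Hmox1*, *Emb*, *Id2* and *Smad3* as examples were chosen after values were seen. Gene positions are from GENCODE on GRCm39, and start sequences from RefSeq on GRCm38.p6.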

Additional observations from a re-analysis of the deposited data

How the results depend on the processing

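No paired analysis was possible because each group has 1 library. The share of NK cells, taken as a point value, was higher in AngII+HS under all definitions run. The log2 ratio was 3.27 where cells with any T cell receptor or *Cd3* UMI were left out. The 1 Control cell left there had no UMI of the NK genes outside the rule. With doublets removed, 179 genes were at least 2-fold lower in AngII+HS, and the median of the immediate early genes was -1.60. Against T cells of the AngII+HS library, the medians were then 2.42 for NK genes outside the rule, 0.62 for granule genes and death ligands and -3.03 for T cell genes. With a marker sum of at least 3, 233 genes were higher and 164 lower in AngII+HS. This setting left out both Control cells led by smooth muscle markers and kept the 3 such cells of AngII+HS. The median of the NK genes turned to -0.40, that of the granule genes to -0.61 and that of the immediate early genes to 0.57. The same setting turned *Ctnna3* to 1.20, *Rgs5* to 3.90, *Cpe* to 1.40, *Lmcd1* to 2.43, *Atf3* to 0.84, *Sgcd* to 2.56, *Ogn* to 0.84 and *Adamts1* to 2.12. Against T cells it gave 3.07, 1.24 and -2.18 for NK, granule and T cell genes. Without T cell receptor and *Cd3* UMIs, the medians between groups were 2.74, 2.44 and -1.60 for NK, granule and immediate early genes. These set the AngII+HS cells against that 1 Control cell led by smooth muscle markers. In the 49 cells below 1% of UMIs on other markers, a setting chosen after seeing the data, 197 genes were higher and 146 lower, the medians were 0.032, -0.38 and -0.15, and *Rgs5* and *Lmcd1* turned to 1.02 and 0.55. Against T cells, the NK and T cell genes then had medians of 2.63 and -2.76, and the ratio of *Sfrp2* moved from -4.90 to -0.83. With equal weight per cell, the medians between groups were -0.15 for granule genes and -1.27 for immediate early genes, and those against T cells 2.35 for NK and 1.05 for granule genes. A minimum of 10 UMIs gave 842 genes higher and 683 lower, and one of 50 UMIs gave 133 and 78. With the exclusions of the rule applied to T cells, the medians were 0.61 for granule and -2.87 for T cell genes. Without thinning, *Ccl5* was detected in 90.4% and *Il2rb* in 80.8% of AngII+HS NK cells. Apart from alternatives that remove or reweight cells, the cause of these shifts was not tested. With 8 Control cells and 54252 UMIs, 1 cell can set a Control value, and a gene at 0 UMIs has an upper limit of 68.0 CPM by counting (*Spp1*, for example).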

Other observations

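Ligands of NK receptors and cytokines that act on NK cells were measured in all kept cells of each library other than the NK cells, T and B cells included, as levels with no test. *Il15*, the survival cytokine of NK cells, was at 8.98 CPM in Control and 20.3 CPM in AngII+HS. *Il18* was at 2.23 and 10.2 CPM. The chemokines *Cxcl9*, *Cxcl10* and *Cxcl16* were at 3.69, 67.3 and 25.5 CPM in Control and at 24.3, 280 and 140 CPM in AngII+HS. *Clec2d*, which encodes the ligand of an inhibitory receptor of the NKR-P1 family, was at 40.0 and 106 CPM. *Pvr* and *Nectin2*, ligands of *Cd226*, were at 47.1 and 16.5 CPM in Control and at 56.4 and 15.3 CPM in AngII+HS.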
